A study of Mus musculus with 8 samples.

Results

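The miR-99/100 and miR-125 families were followed in mouse liver during injury with carbon tetrachloride (CCl4), a toxin that damages hepatocytes and leads to fibrosis when given repeatedly. The members were taken by name from the list of assays: miR-99a, miR-99b, miR-100, miR-125a-5p and miR-125b-5p, which made 5 of the 381 assays listed. Total RNA of whole liver came from female C57B6 mice that were 4 weeks of age when treatment began. There were 4 groups of 2 samples: untreated mice, described in the labels only as controls given nothing, and mice given CCl4 for 1, 4 or 8 weeks. CCl4 was diluted in corn oil and injected into the peritoneum 2 times a week, at 1 mg/kg in the labels and 1 ml/kg in the methods of the study. All CCl4 mice started at the same age, so time on CCl4 cannot be told apart from age. The untreated mice are not described as given corn oil or injections, so these cannot be told apart from CCl4 either. The labels do not say that the samples of a group were separate mice, so the p-values measure the spread between these samples, which may be technical. Each sample was run on a TaqMan Array Rodent MicroRNA A Card, a plate with a quantitative PCR assay for a different small RNA in each well.

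The mature miRNAs of both families are short RNAs that pair with messenger RNAs, mainly through the seed at bases 2 to 8, and lower their stability or translation. miR-125 is the vertebrate counterpart of lin-4, the first miRNA described in worms, and the miR-99/100 family is known for targeting mTOR, a kinase that promotes growth. In vertebrates the genes of both families lie together with a let-7 gene in small clusters, an arrangement shared with insects. let-7 miRNAs are known as markers of differentiated cells.

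The mature sequences show how closely the assays' targets resemble each other and which members share a seed. They were taken from RefSeq, build GRCm38.p6, in which all 5 members were matched, and are written 5′ to 3′ with the seed in capitals. miR-99a, miR-99b and miR-100 have 1 seed.
miR-99a: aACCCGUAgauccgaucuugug
miR-99b: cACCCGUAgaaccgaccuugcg
miR-100: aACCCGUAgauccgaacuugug

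The second seed is that of miR-125a-5p and miR-125b-5p, and also of miR-351, whose assays on the card are described after the members.
miR-125a-5p: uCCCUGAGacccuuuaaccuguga
miR-125b-5p: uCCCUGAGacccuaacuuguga
miR-351: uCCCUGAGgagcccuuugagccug

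Counted from 1 at the 5′ end, miR-100 differs from miR-99a only by U16A, and miR-99b differs from miR-99a by A1C, U11A, U16C and U21C. miR-125a-5p has 24 bases and miR-125b-5p has 22. How far each assay also reads its near-identical relatives was not measured on these cards, so the values of miR-99a and miR-100 in particular are uncertain as separate measurements.

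The genes form 3 clusters of the same build, all on the plus strand. miR-99a (chr16:77598940-77598961) lies near Mirlet7c-1 and Mir125b-2, 1 of the 2 genes of miR-125b-5p (chr16:77646279-77646300). miR-100 (chr9:41531437-41531458) lies with Mirlet7a-2 and the other miR-125b gene, Mir125b-1 (chr9:41581940-41581961), within the long non-coding host gene Mir100hg. miR-99b (chr17:17830194-17830215), Mirlet7e and miR-125a-5p (chr17:17830817-17830840) lie within the protein-coding gene Spaca6. The mature miR-125b-5p of the 2 genes is the same molecule, so its assay cannot tell the clusters on chromosomes 9 and 16 apart.

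A threshold cycle (Ct) is the PCR cycle at which the signal crosses a set level, and a Ct lower by 1 stands for about 2 times the template. Of the 381 assays, 168 had a Ct on every card and 102 on none, and 193 to 235 were determined per card. The mean of the 149 assays whose Ct stayed under the limit of 35 ran from 27.5 to 29.8 among the cards, so each value is given as the card mean minus the Ct of the assay, called the centred value, in log2 units. All 5 members were determined on 8 of 8 cards and were among the 166 assays tested with limma. Their mean Ct was 27.4 for miR-125b-5p, 27.7 for miR-125a-5p, 27.9 for miR-99a, 28.1 for miR-100 and 28.6 for miR-99b, or places 48 to 70 from the lowest among the 166. Each assay has its own primers, so this order is one of Ct and not of the amount of RNA. All 6 miRNAs of a hepatocyte list, miR-122 among them, were determined on every card.

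miR-125a-5p, of the chromosome 17 cluster, was the member called against untreated liver at 1 week. Its centred values were -0.02 and 0.17 without CCl4, 0.92 and 1.61 after 1 week, 0.80 and 1.13 after 4 weeks, and 0.88 and 0.91 after 8 weeks. Every CCl4 card was above both untreated cards. At 1 week miR-125a-5p was 2.28-fold higher than in untreated liver, with a log2 fold change of 1.19 (SE 0.33, adjusted p = 0.0285 with limma, 2 cards in each group). It was 1 of 5 members called at this time, where 32.5% of all tested assays were called. The log2 fold changes at 4 weeks (0.90, SE 0.33) and 8 weeks (0.82, SE 0.33) did not pass, with adjusted p of 0.0734 and 0.172. For the mean of the 3 CCl4 times the log2 fold change was 0.97 (SE 0.27, adjusted p = 0.0303), again 1 of 5 members called against 28.9% of all assays. Its groups were the only ones among the 5 members that did not overlap over all 6 CCl4 and 2 untreated cards, and 29.5% of all assays were separated in this way. Whole liver holds several cell types, and fewer cells of a type cannot be told apart from less RNA per cell. The summed level of 6 leukocyte miRNAs, relative to the untreated mean, was 0.74 to 1.26 in untreated liver, 3.35 to 3.57 after 1 week, 2.78 to 3.77 after 4 weeks and 1.39 to 1.98 after 8 weeks. For such sums centred values were put on a linear scale and added, so the assays with the lowest Ct weigh most. Of the 6, 5 were called higher at 1 week, 4 at 4 weeks and 0 at 8 weeks, where 30, 22 and 4 of all 166 assays were. The median log2 fold changes of the 6 leukocyte miRNAs were 1.71, 1.31 and 0.72, beside 1.19, 0.90 and 0.82 for miR-125a-5p. Their part in its values was not tested.

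The 1-week call rests on single cards and on the scaling. Without 1 card in turn the log2 fold change was 0.84 to 1.53 and the adjusted p 0.0347 to 0.177, and the call was lost without either untreated card (1.09 and 1.29) or without 1-week replicate 2 (0.84). It was also lost with the scaling that the methods of the study name, a geometric mean per plate, taken here over every determined Ct (0.84, adjusted p = 0.208), with the card median (1.00), with the 3 control RNAs (0.95) and without normalization (0.68). It was kept with snoRNA135 alone (1.46, adjusted p = 0.0287), snoRNA202 alone (2.58) and quantile normalization (1.36), and with U6 RNA as the only reference the direction turned (-1.19). For the mean of the 3 times, the log2 fold change was 0.85 to 1.08 with 1 card left out, and of these fits the call was kept without 1-week replicate 1 or 4-week replicate 1. That call was also lost under the geometric mean of the study's methods (0.77, adjusted p = 0.216), the card mean of every determined assay, the card median, snoRNA135 alone, U6 alone and no normalization.

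With the cards centred as described, the remaining members had negative log2 fold changes at 1 week, and none of them passed the test against untreated liver at a single time. Some passed under other settings, among them miR-99a at 1 week with a trend in eBayes (adjusted p = 0.0394). The sign at 1 week turned with snoRNA202 as the only reference and, for miR-99b, without untreated replicate 1 (0.074). For miR-99a, of the chromosome 16 cluster, centred values were 1.00 and 0.78 without CCl4, 0.10 and -0.02 after 1 week, 0.73 and 0.75 after 4 weeks, and 0.52 and 1.09 after 8 weeks. Both 1-week cards were below all other cards. The log2 fold change at 1 week was -0.85 (SE 0.30, adjusted p = 0.0640), and those at 4 and 8 weeks were -0.14 and -0.08.

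miR-100, of the chromosome 9 cluster, followed miR-99a closely. Its centred values were 0.73 and 0.49 without CCl4, -0.20 and -0.21 after 1 week, 0.28 and 0.94 after 4 weeks, and 0.20 and 0.88 after 8 weeks. Again the 1-week cards lay below the rest, and the 4-week and 8-week pairs each spanned the untreated values. Its log2 fold changes were -0.82 (SE 0.36, adjusted p = 0.117) at 1 week, 0.01 at 4 weeks and -0.07 at 8 weeks, the last 2 far within their SE of 0.36.

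miR-125b-5p, which both of these clusters encode, had the widest spread of the 5 between the cards at 4 and at 8 weeks. It measured 1.41 and 0.97 without CCl4, -0.21 and 0.12 after 1 week, 1.31 and 2.48 after 4 weeks, and 0.65 and 1.81 after 8 weeks. The 1-week cards were the lowest of the 8, and the later pairs overlapped the untreated cards. Log2 fold changes against untreated were -1.24 (SE 0.52, adjusted p = 0.105) at 1 week, 0.71 at 4 weeks and 0.04 at 8 weeks. Under the geometric mean of the study's methods, miR-125b-5p in place of miR-125a-5p was the member called at 1 week (-1.58, adjusted p = 0.0345).

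miR-99b shares a cluster with miR-125a-5p and a seed with miR-99a and miR-100. Its centred values were -0.24 and -0.98 without CCl4, -1.05 and -0.75 after 1 week, 0.40 and 1.18 after 4 weeks, and -0.30 and 0.67 after 8 weeks. The 4-week cards were above both untreated cards, while the 1-week and 8-week pairs overlapped them. The log2 fold change at 4 weeks, 1.41 (SE 0.46), was the largest of the 5 members at this time, with an adjusted p of 0.0544, and it was called when 4-week replicate 1 or either 8-week card was left out (adjusted p down to 0.0394). At 1 and 8 weeks the log2 fold changes were -0.29 (SE 0.46) and 0.80 (SE 0.46). By the F test over the 3 times, miR-99b was the 1 member of 5 called (adjusted p = 0.0466 with limma), where 54.2% of all assays were called, and the call was lost under 5 of the other settings, the replicate block among them, and in 5 of the 8 fits that left out a card.

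**Figure D1:**
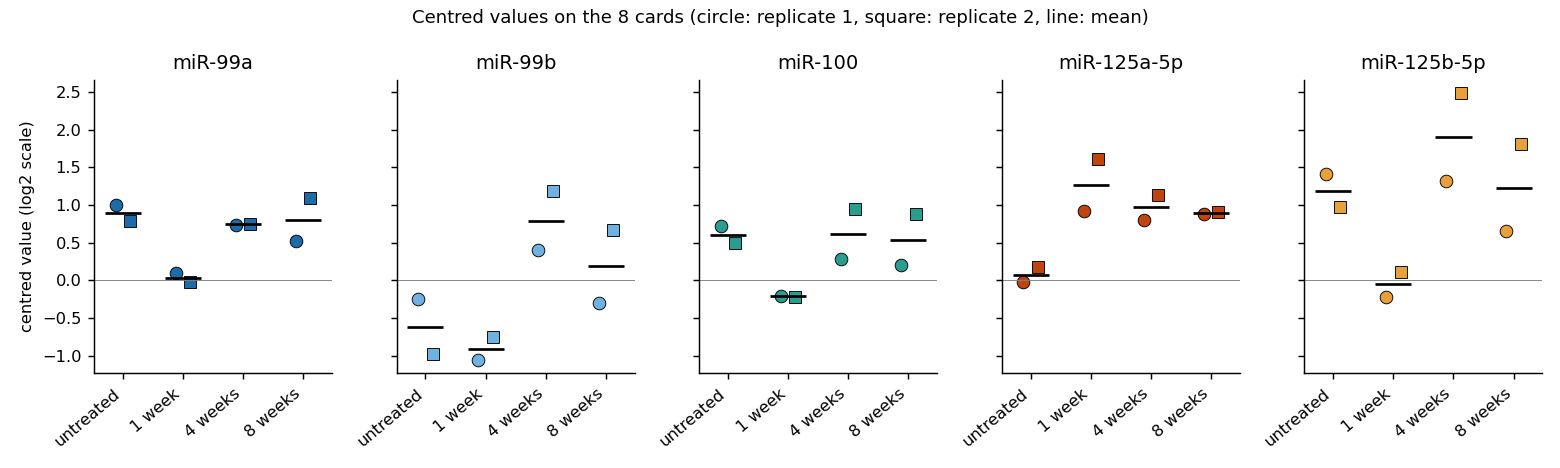
Centred values (log2 units, card mean minus Ct) of the 5 members on each of the 8 cards, by group; circles are replicate 1, squares replicate 2, and lines the mean of the 2 cards. miR-125a-5p is above its untreated cards on all 6 CCl4 cards, while miR-99a, miR-100 and miR-125b-5p have their lowest cards at 1 week.

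Against untreated liver as a whole, the members did not stand out from the other assays in number. At 1 week, 3 members (miR-99a, miR-100, miR-125b-5p) were below and 1 (miR-125a-5p) above both untreated cards, and 76.5% of all assays did not overlap either. Their median log2 fold change at 1 week was -0.82, against -0.09 over all tested assays. At 4 weeks 0 of 5 members were called by limma, where 30.1% of all assays were called, and the median was 0.71 against 0.03. At an unadjusted p under 0.05 there were 2 members and 73 of all 166 assays. The 4-week cards of miR-99b and miR-125a-5p were above and those of miR-99a below the untreated cards, against 68.1% of all assays that did not overlap. At 8 weeks 0 of 5 members were called against 3.01% of all assays, with medians of 0.04 and -0.04. An unadjusted p under 0.05 was reached by 1 member and by 40 of all 166 assays. miR-125a-5p was the 1 member whose cards did not overlap at 8 weeks, and 60.8% of assays did not overlap.

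**Figure D2:**
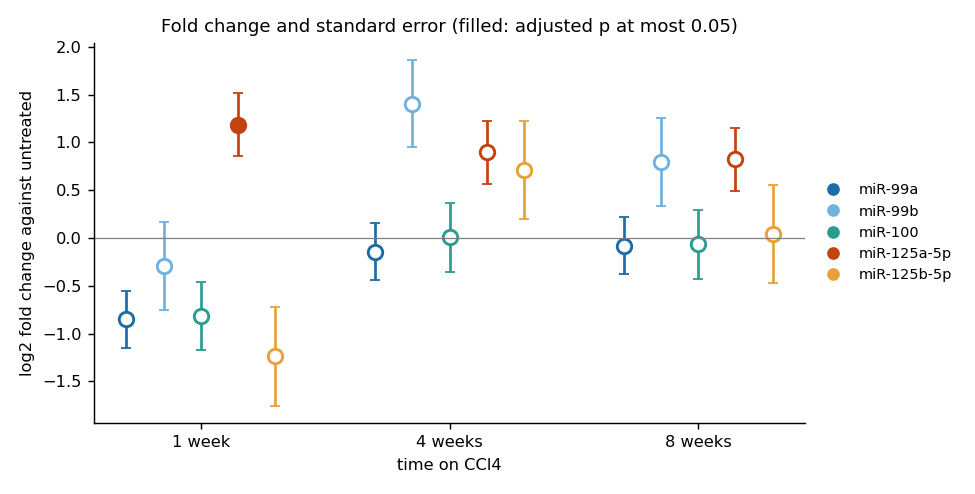
Log2 fold change against untreated liver (points) with its standard error from limma (bars) for each member at 1, 4 and 8 weeks of CCl4; filled points have an adjusted p at or under 0.05. The filled point is miR-125a-5p at 1 week, at 1.19, opposite in sign to the other members at that time, while with U6 or snoRNA202 as the only reference all 5 have 1 sign.

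miR-99b and miR-125b-5p were higher at 4 weeks of CCl4 than at 1 week, times at which the mice also differed in age. miR-125b-5p was 3.86-fold higher at 4 weeks than at 1 week (log2 fold change 1.95, SE 0.52, adjusted p = 0.0218) and miR-99b was 3.24-fold higher (1.70, SE 0.46, adjusted p = 0.0218). These were 2 of 5 members called by limma, against 47.0% of all assays. miR-99a (0.71, SE 0.30, adjusted p = 0.0849) and miR-100 (0.82, SE 0.36, adjusted p = 0.0905) did not pass, though their 4-week cards, like those of miR-99b and miR-125b-5p, lay above both 1-week cards. Cards of the 2 times did not overlap for 74.7% of all assays. miR-125a-5p was the exception, at -0.29 (SE 0.33, adjusted p = 0.472). The calls of miR-99b and miR-125b-5p were lost without either 1-week card or without 4-week replicate 2, and the log2 fold changes were 1.31 to 2.09 and 1.36 to 2.53 over the fits that left out a card. They were also lost without normalization, and with snoRNA202 as the only reference (0.95 for miR-125b-5p and 0.70 for miR-99b). Of the 8 cards, 4-week replicate 2 had the fewest determined assays (193) and the highest card mean Ct (29.8). It also held the higher 4-week value of both members (2.48 for miR-125b-5p and 1.18 for miR-99b).

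No member passed the test between 8 weeks and either earlier time. Against 1 week, 0 of 5 were called by limma, where 24.1% of all assays were called. At an unadjusted p under 0.05 there were 3 members and 70 of all 166 assays. The log2 fold changes were 1.28 for miR-125b-5p, 1.09 for miR-99b, 0.77 for miR-99a, 0.75 for miR-100 and -0.36 for miR-125a-5p. Against 4 weeks, 0 of 5 were called, where 1.2% of all assays were, and 0 members and 27 of all 166 assays had an unadjusted p under 0.05.

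The scaling of the cards moved every member by the same amount (quantile normalization apart), so directions against untreated liver depend on it. U6, the abundant small nuclear RNA often used as a reference, itself had a log2 fold change of 2.38 at 1 week and -1.50 at 4 weeks against the card mean, and snoRNA202 had -1.39 at 1 week, so neither was steady. Of the 3 control RNAs snoRNA135 moved least, with -0.27, -0.03 and -0.06 at the 3 times. With snoRNA202 as the only reference, all 5 members were above untreated at 1 week, and with U6 as the only reference all 5 were below. Under the other scalings drawn, miR-125a-5p was above untreated at 1 week and the other 4 members were below.

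**Figure D3:**
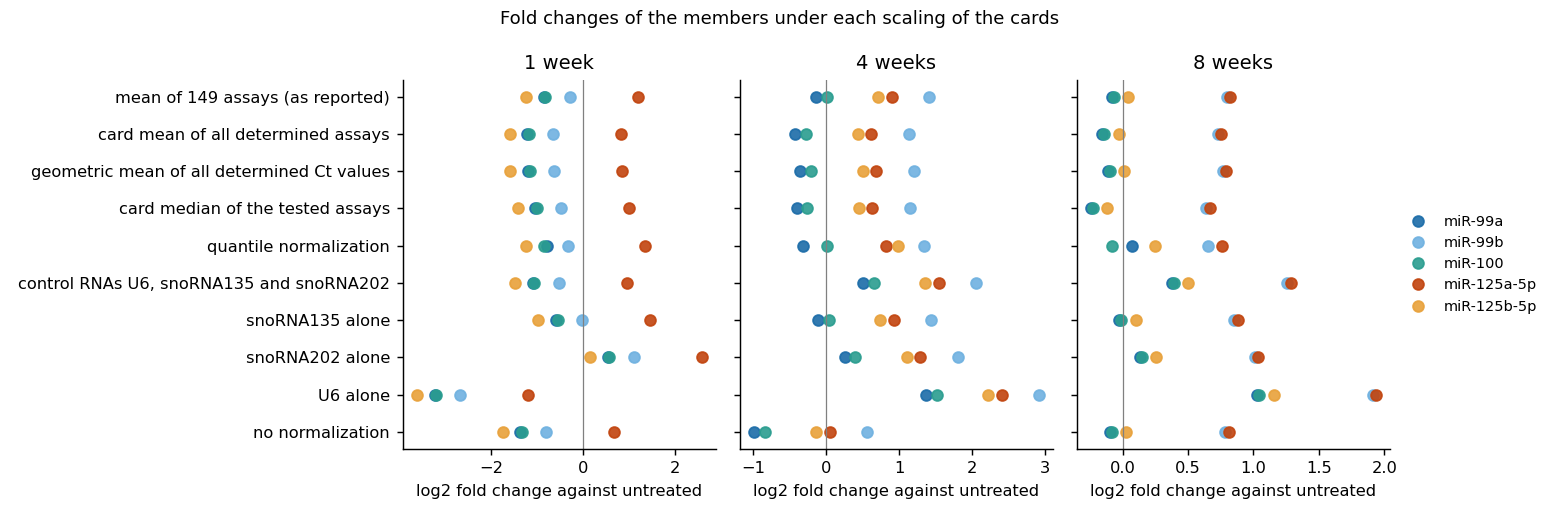
Log2 fold change against untreated liver (horizontal axis) of the 5 members at 1, 4 and 8 weeks under 10 ways of scaling the cards (rows). Each row other than quantile normalization shifts the 5 members by 1 amount and so keeps their order. At 1 week miR-125a-5p is at 1.19 as reported, 2.58 with snoRNA202 alone and -1.19 with U6 alone.

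The difference in Ct between 2 members on the same card does not depend on the scaling, and 7 such pairs were compared, relatives by seed and neighbours by cluster. With 6 CCl4 and 2 untreated cards an exact permutation test has 28 assignments and cannot give a p below 0.0357, and p-values here are two-sided and unadjusted. The pair that differs by a single base had the smallest mean difference of the 7. The log2 ratio of miR-99a over miR-100 was 0.27 and 0.29 without CCl4, 0.30 and 0.19 after 1 week, 0.45 and -0.19 after 4 weeks, and 0.32 and 0.21 after 8 weeks. Its mean changed by -0.07 (exact p = 0.679).

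The ratios of miR-99b to its seed relatives did not overlap between the CCl4 cards and the untreated ones. Of single assays 29.5% did not overlap in this way, and the share over all pairs of assays was not computed. The log2 ratio of miR-99b over miR-100 was -0.97 and -1.47 without CCl4, -0.85 and -0.54 after 1 week, 0.12 and 0.24 after 4 weeks, and -0.50 and -0.21 after 8 weeks. All CCl4 cards were above both untreated cards, by 0.93 on average (exact permutation p = 0.0714), and the difference was greatest at 4 weeks (1.40). The ratio of miR-99a over miR-99b shares miR-99b with it, and miR-99a is nearly the same sequence as miR-100, so the 2 ratios are not separate observations. It was 1.24 and 1.76 in untreated liver and between -0.43 and 1.15 on the CCl4 cards, without overlap (mean difference -0.997, exact permutation p = 0.107). Neither p is below 0.05 with all 8 cards, and both are 0.0476, the smallest the exact permutation test then allows, without 1-week replicate 1 or without 4-week replicate 2. Over all fits that left out a card their exact p ran from 0.0476 to 0.286.

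miR-125a-5p and miR-125b-5p, which share a seed, were furthest from their untreated ratio at 1 week. The log2 ratio of miR-125a-5p over miR-125b-5p was -1.43 and -0.80 without CCl4, 1.13 and 1.49 after 1 week, -0.51 and -1.35 after 4 weeks, and 0.23 and -0.90 after 8 weeks. The 1-week cards were above every other card, by 2.43 over the untreated mean, and the 4-week cards were back in the range of the untreated ones or just above it. A comparison of 2 cards with 2 cannot give an exact two-sided p below 0.333. Over all 6 CCl4 cards the mean difference was 1.13 and the groups overlapped (exact permutation p = 0.25).

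**Figure D4:**
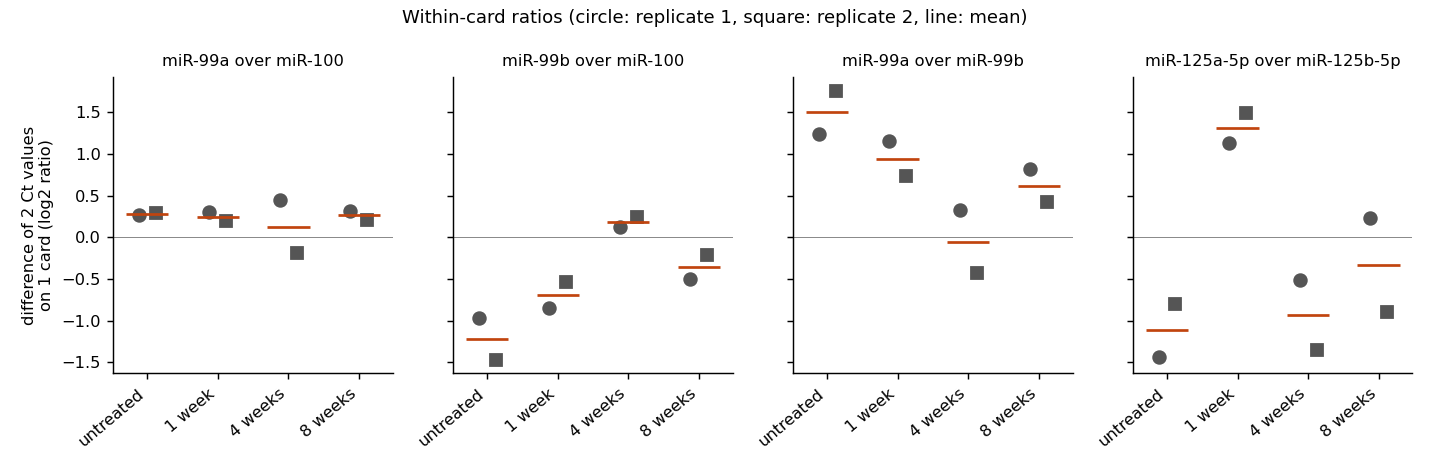
Difference of 2 Ct values on the same card, as a log2 ratio, for 4 pairs of members on the 8 cards; circles are replicate 1, squares replicate 2, and lines the mean of the 2 cards. The ratio of miR-125a-5p over miR-125b-5p is highest at 1 week (1.13 and 1.49), and that of miR-99b over miR-100 is highest at 4 weeks (0.12 and 0.24).

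Neighbours in a cluster were compared in the same way. On chromosome 17, miR-99b over miR-125a-5p was -0.22 and -1.15 without CCl4, -1.97 and -2.36 after 1 week, -0.40 and 0.05 after 4 weeks, and -1.18 and -0.24 after 8 weeks. The 1-week cards were the lowest of the 8, with a difference of -1.48 from the untreated mean. Over all CCl4 cards the difference was -0.33 (exact permutation p = 0.643). Against miR-125b-5p, miR-99a changed by -0.20 (exact permutation p = 0.714) and miR-100 by -0.13 (exact permutation p = 0.75), with overlapping cards, and both ratios were lowest at 4 weeks (group means -1.16 and -1.29).

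Likeness between members was described by Pearson's r of the centred values over the 8 cards, which share the groups and the card means and are no test. miR-99a and miR-100 had r = 0.91, miR-100 and miR-125b-5p 0.94, miR-99a and miR-125b-5p 0.81, and miR-99b and miR-125b-5p 0.89. miR-125b-5p was the second of all assays in likeness to miR-100. miR-125a-5p stood apart, with r of -0.62 to miR-99a, -0.41 to miR-100, -0.19 to miR-125b-5p and 0.18 to its neighbour miR-99b.

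The assays outside the families that were most alike overlapped between members other than miR-125a-5p. For miR-99a they were miR-10a (0.98), the control snoRNA202 (0.95) and miR-28 (0.93), and for miR-100 miR-151-3p (0.95), let-7d (0.94) and miR-10a (0.94). For miR-99b they were miR-328 (0.95), miR-532-3p (0.93) and miR-339-5p (0.92), and for miR-125b-5p miR-328 (0.96), let-7d (0.95) and let-7b (0.94). For miR-125a-5p they were miR-409-3p (0.90), miR-142-5p (0.89) and miR-127 (0.88).

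**Figure D5:**
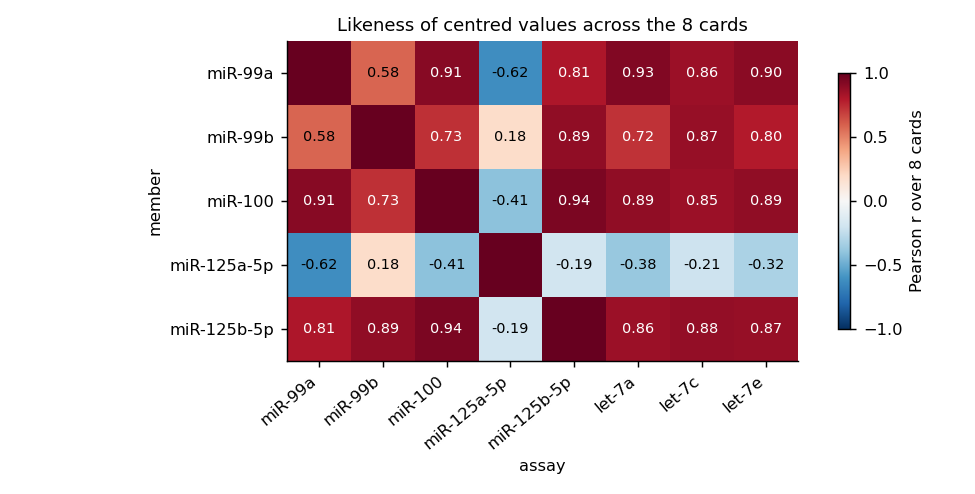
Pearson's r of centred values over the 8 cards between each member (rows) and the members and the let-7 miRNAs of their clusters (columns). The row of miR-125a-5p holds negative or low values, from -0.62 to 0.18, while the other rows are above 0.58 outside its column.

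The let-7 miRNAs that the clusters encode also had negative log2 fold changes at 1 week, although let-7a and let-7c have further genes outside these clusters that their assays cannot tell apart. Log2 fold changes at 1 week were -1.77 for let-7a (adjusted p = 0.0190), -2.05 for let-7c (adjusted p = 0.0579) and -1.50 for let-7e (adjusted p = 0.0589), against 1.19 for miR-125a-5p, whose gene lies beside that of let-7e. Of the 9 let-7 family assays tested, 3 were called lower at 1 week, 2 lower at 4 weeks and 0 at 8 weeks. Their median log2 fold change was -1.37 at 1 week but 0.31 at 4 weeks and 0.21 at 8 weeks. Over all 166 tested assays, 24, 28 and 1 were called lower at these times. In either direction 32.5%, 30.1% and 3.01% of all assays were called. From 1 to 4 weeks 7 of the 9 were called higher, against 36 of all 166 assays called higher and 47.0% called in either direction.

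Other products of the same hairpins and seed gave little. The assay for miR-125a-3p, the opposite arm of miR-125a-5p, was determined on 7 of 8 cards at a mean Ct of 34.4 and was not tested, and that for miR-125b-3p was determined on 0 of 8. The assay for mouse miR-351, with the seed of miR-125, was determined on 7 cards. The assay for the rat sequence of miR-351 was tested, at a mean Ct of 33.3, with log2 fold changes of 0.61, 1.10 and 0.84 at 1, 4 and 8 weeks (adjusted p 0.225, 0.0554 and 0.201).

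Other marker miRNAs moved beside the members too. For the 6 hepatocyte miRNAs the summed level relative to the untreated mean was 0.98 to 1.02 in untreated liver, 0.58 to 0.59 after 1 week, 0.34 to 0.38 after 4 weeks and 0.59 to 0.69 after 8 weeks. Their median log2 fold changes were -0.79, -2.36 and -1.22. Of the 6, 1, 5 and 1 were called lower at these times, where 24, 28 and 1 of all 166 assays were. For the 4 mesenchymal and stellate cell miRNAs tested, of a list of 6, the summed level was 0.94 to 1.06 in untreated liver, 0.99 to 1.06 after 1 week, 1.24 to 1.68 after 4 weeks, when miR-99b and miR-125b-5p were highest, and 0.94 to 1.17 after 8 weeks. At 4 weeks 2 of the 4 were called higher, where 22 of all 166 assays were. miR-199a-5p, of the same list, was determined on 1 card. For the 2 endothelial miRNAs the summed level was 0.83 to 1.17 in untreated liver, 1.46 to 1.53 after 1 week, 0.21 to 0.37 after 4 weeks and 0.39 to 0.70 after 8 weeks. At 4 weeks 2 of 2 were called lower, where 28 of all 166 assays were. Over the CCl4 cards the 4 biliary and other epithelial miRNAs tested lay between 0.56 and 1.24 and the 2 erythroid miRNAs between 0.85 and 1.22. Of these 0 were called against untreated liver, where 32.5%, 30.1% and 3.01% of all assays were called at 1, 4 and 8 weeks. The part of these cells in the members' values was not tested.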

How the data were processed

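MicroRNAs in total liver RNA, isolated with the mirVana kit, were reverse transcribed with Megaplex primers without pre-amplification and run on a real-time PCR instrument. The authors deposited threshold cycles (Ct) without normalization. The software that set the threshold is not given in the sources used here. A deposited table of the authors' fold changes to untreated liver, as ratios after geometric-mean normalization, was not used. Ct values carry no read depth, and precision is limited by 2 cards per group; the design text gives 4, 3 and 2 mice at the 3 times, which differs from the cards at 1 and 4 weeks.

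Each Ct was subtracted from the mean of its card over the 149 assays that stayed under Ct 35. The 166 assays determined on all 8 cards with a mean Ct below 35 were fitted with limma 3.58.1 in R 4.3.3 (group means, lmFit and eBayes, prior df 3.47). Their p-values were Benjamini-Hochberg adjusted within each comparison, with a threshold of 0.05. Within-card ratios were compared by an exact permutation test in Python 3.11.15. Named were the members, the let-7 miRNAs of their clusters, other arms, assays sharing a seed, control RNAs and the 3 assays most like each member by Pearson's r. Members and marker lists were chosen with earlier results of these data known. Other scalings, Ct limits, undetermined values set to Ct 40, the replicate block, a trend in eBayes, a fit to only the groups compared and each card left out were tried. Sequences and gene positions are RefSeq's (GRCm38.p6); no build is named with the Ct values.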

Additional observations from a re-analysis of the deposited data

Results flagged for a closer look

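The response of 2 members differed between times of treatment by limma's test of the difference itself. For miR-99b the log2 fold change was 1.70 higher at 4 weeks of CCl4 than at 1 week (1.41 against -0.29, each relative to untreated liver). For miR-125b-5p it was 1.95 higher (0.71 against -1.24). These were 2 of 5 members, where 47.0% of all assays were called from 1 to 4 weeks. Both calls were lost without either 1-week card, without 4-week replicate 2, without normalization and with snoRNA202 as the only reference. Groups of 2 cards were too small for a test of single cards that stand apart. The card of 4-week replicate 2 had the fewest determined assays (193) and the highest card mean Ct (29.8).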

How the results depend on the processing

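The direction of the members against untreated liver depends on the scaling, and the calls depend on single cards. For all of these changes the cause was not tested. Of 597 alternative values of single members, 255 left the log2 fold change as it was (within 0.001), among which 8 gained a call. Of the 342 that moved, 235 kept direction and side of the threshold, 30 lost a call, 35 gained one and 42 changed direction. These numbers leave out values between 8 and 4 weeks and, for the mean of the 3 times, members other than miR-125a-5p. Some values left out changed direction, and miR-99b gained a call for that mean with snoRNA202 alone (1.30, limma adjusted p = 0.0179).

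Counts of members called were 1, 0, 0, 2, 0, 1 and 1 for 1, 4 and 8 weeks against untreated, 4 and 8 weeks against 1 week, the mean of the 3 times and the F test. With U6 alone they were 4, 3, 2, 5, 5, 0 and 5, where 126, 82, 40, 150, 158, 13 and 158 of all 165 assays were called. With the 3 control RNAs they were 0, 2, 0, 4, 4, 1 and 5, where 47, 56, 12, 92, 56, 35 and 103 of 166 were called. With snoRNA202 alone they were 2, 2, 0, 1, 1, 2 and 2, beside 81, 43, 4, 81, 81, 42 and 103 of 165, and without normalization 0 throughout, beside 1 to 29 of 166. Scaling to every determined assay, by card mean or by geometric mean, gave 1 (miR-125b-5p in place of miR-125a-5p), 0, 0, 2, 1, 0 and 2, and the card median 0, 0, 0, 2, 0, 0 and 2. For 1, 4 and 8 weeks against untreated and 4 weeks against 1, the card mean called 51, 39, 1 and 58 of all 166 assays. The geometric mean called 51, 35, 1 and 59 of them and the card median 51, 46, 2 and 64. For 8 weeks against 1 week the card mean, geometric mean and card median called 21, 21 and 15 assays higher and 12, 12 and 18 lower. For the mean of the 3 times they called 10, 11 and 15 higher and 14, 14 and 27 lower. A trend in eBayes gave counts of 2 and 2 for 1 and 4 weeks, where 58 and 53 of 166 assays were called, and of 3 for the F test. A mean Ct below 32 gave 2 and 1 for 1 and 4 weeks, where 52 and 51 of 133 were called, and 3 for the F test. Quantile normalization and a fit to only the groups compared each gave 2 at 1 week, where 48 and 66 of 166 assays were called. From 1 to 4 weeks quantile normalization gave 3, where 63 of 166 assays were called. snoRNA135 alone gave 0 for the mean of the 3 times, where 19 of 165 assays were called higher and 7 lower, and 0 by the F test. Undetermined values set to Ct 40 gave 0 by the F test. No count of calls was above 0 between 8 and 4 weeks in any of these settings. With the cards centred as reported, the F test called 90 of all 166 assays. Where an F test count above has no share of all assays beside it, it cannot be read as a result about the members.

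Replicate numbers did not pair the cards: correlations of the differences between replicates ran from -0.50 to 0.43 over 166 assays. The replicate block gave 0 by the F test, for which no share of all assays is given here, and changed no other count.

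Directions turned as follows, as log2 fold changes. With U6 alone miR-125a-5p was -1.19 at 1 week, 3.59 from 1 to 4 weeks and 3.13 from 1 to 8 weeks; miR-99a was 1.36 at 4 weeks and 1.03 at 8 weeks, and miR-100 1.05 at 8 weeks. With the 3 control RNAs miR-99a was 0.50 at 4 weeks and 0.38 at 8 weeks, miR-100 0.39 at 8 weeks, and miR-125a-5p 0.59 and 0.34 from 1 to 4 and 8 weeks. With snoRNA202 alone, at 1 week, miR-99a was 0.54, miR-99b 1.10, miR-100 0.58 and miR-125b-5p 0.16; miR-99a was 0.25 at 4 weeks and 0.13 at 8 weeks and miR-100 0.15 at 8 weeks; from 1 to 4 weeks miR-99a was -0.29 and miR-100 -0.18, and from 1 to 8 weeks miR-99a was -0.41, miR-99b -0.09 and miR-100 -0.43. After 4 weeks miR-100 was -0.27 when every determined assay entered the card mean, -0.20 with their geometric mean, -0.26 with the card median and -0.84 without normalization. After 8 weeks miR-125b-5p was -0.030 when every determined assay entered the card mean and -0.12 with the card median, and -0.14 at 4 weeks without normalization, where miR-125a-5p from 1 to 8 weeks was 0.14. With quantile normalization miR-99a was 0.074 at 8 weeks.

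Leaving out each card in turn gave 0 to 1 members called at 1 week, 0 to 1 at 4 weeks, 0 to 2 from 1 to 4 weeks, 0 to 1 from 1 to 8 weeks, 0 to 1 for the mean of the 3 times and 0 to 2 by the F test. Over the same fits the calls among all 166 assays ran from 15 to 59, 22 to 51, 30 to 75, 4 to 49, 7 to 46 and 35 to 88. Log2 fold changes that changed sign ranged from -0.66 to 0.074 for miR-99b at 1 week, -0.33 to 0.34 for miR-100 at 4 weeks, -0.37 to 0.20 for miR-99a, -0.41 to 0.27 for miR-100 and -0.54 to 0.62 for miR-125b-5p at 8 weeks, and -0.64 to 0.054 for miR-125a-5p from 1 to 4 weeks. Within-card differences ranged from -1.26 to -0.74 for miR-99a over miR-99b, 0.68 to 1.18 for miR-99b over miR-100, 0.82 to 1.45 for miR-125a-5p over miR-125b-5p, -0.11 to 0.014 for miR-99a over miR-100, -0.36 to 0.048 for miR-99a over miR-125b-5p, -0.80 to 0.13 for miR-99b over miR-125a-5p and -0.28 to 0.034 for miR-100 over miR-125b-5p. With 1 card left in a group, that card was taken to vary like the other groups.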
